A study of Mus musculus with 7 samples.

Results

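The genes of antigen presentation by the major histocompatibility complex (MHC) were followed in tumors grown from NM1 knockout fibroblasts. They were taken as 33 mouse genes named by symbol, 20 of the class I pathway and 13 of the class II pathway, out of 46603 genes in the count tables. All 33 were found, and all 33 were among the 16887 genes that passed the filter on low counts. The study injected Balb/c nude mice, female and 16 weeks old, with mouse embryonic fibroblasts (MEFs) of a stable line in which NM1, the nuclear isoform of the motor protein myosin 1c, had been removed with CRISPR/Cas9. The KO group held tumors from these cells, and the KO+NM1 group held tumors from KO cells to which NM1, tagged and carried by a lentivirus, had been returned under neomycin selection, so that both groups lacked the endogenous protein. The transgenic cells were grown from single clones, and 5 mice were injected per group. Tumors were collected after 30 days, and for sequencing 1 KO and 1 KO+NM1 tumor were each cut into 4 equal pieces according to the sample labels, whereas the methods write of tumors. The data hold 3 KO libraries (01 to 03) and 4 KO+NM1 libraries (01 to 04), 1 per piece, and the p-values below therefore cover the spread between pieces, possibly of a single tumor per group. Injected cells and host are both of mouse origin and their reads were not separated, and no library of a wild-type tumor was analysed here. The comparison asks how the transcripts of tumors lacking NM1 differ from those of tumors in which NM1 was returned.

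Class I molecules display peptides from inside the cell and are made by nearly every nucleated cell as a heavy chain with beta-2 microglobulin. Class II molecules display peptides taken up from outside, and they are made mainly by B cells, dendritic cells and activated macrophages, and by other cells under interferon gamma. Their genes share promoter elements known as the X and Y boxes, at which the RFX complex, CREB and NF-Y assemble and recruit a coactivator, Ciita for class II and Nlrc5 for class I. Nude mice lack a functional thymus and so have few mature T cells, while their B cells, macrophages and dendritic cells remain.

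The libraries held 24088309 to 28326568 counts, and values are given as CPM, counts scaled to a common library size after adjustment by the trimmed mean of M values (TMM). A count of 3, taken as the floor, corresponded to 0.0991 to 0.148 CPM in the 7 libraries. Myo1c, the gene that encodes NM1, was at 303 ± 12.1 CPM in KO (SD, n = 3) and at 408 ± 23.1 CPM in KO+NM1 (SD, n = 4). That check is weak, since the gene-level count adds every isoform and may take in the transgene. KO+NM1 library 01 stood apart from the other 3 KO+NM1 libraries, with high B cell markers, and the counts of called genes are given with and without it. Mitochondrially encoded genes took 1.81 to 2.14% of the counts in KO and 5.11 to 18.5% in KO+NM1. Fibroblast markers were present in all 7 libraries, with 8 markers summing to 7198 to 12994 CPM in KO, to 2847 CPM in KO+NM1 library 01 and to 7532 to 13010 CPM in KO+NM1 libraries 02 to 04. Collagen genes led these sums, and single markers differed, with Dcn at a mean of 215 CPM in KO and 1716 CPM in KO+NM1 02 to 04. By the test described below, without library 01, 4 of the 8 were called lower in KO and 1 higher, beside 25.1% and 21.7% of all genes. The groups also differed in host tissue, since 8 muscle markers summed to 2337 to 19179 CPM in KO against 6.42 to 25.3 CPM in KO+NM1 libraries 02 to 04, and 8 white adipocyte markers to 108 to 216 against 20854 to 29363 CPM. In bulk tissue such as this, fewer cells of a type and less RNA per cell cannot be told apart.

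Most members lie in the H2 complex, the mouse MHC, and 22 of the 33 fall between chr17:33915899-37274484 of GRCm38. Promoters of 25 members were matched in RefSeq (GRCm38.p6, C57BL/6J), each 250 bases before to 50 bases after the annotated start. The stretches below are shown because they hold short matches to core letters of the X and Y boxes, in H2-DMb2 of the Y box alone. They contrast class II genes that followed different courses across the libraries with class I genes that did and did not differ between groups. Each reads 5′ to 3′ on the strand of its gene. Capitals mark the Y box core GATTGG or its reverse complement CCAATC, the X1 box core AGCAAC, and the X2 box core TGACG or its reverse complement CGTCA. In H2-Aa both X2 forms overlap.
H2-Aa, chr17:34287854-34287923, minus strand: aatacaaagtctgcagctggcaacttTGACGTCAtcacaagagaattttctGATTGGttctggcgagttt
H2-Eb1, chr17:34305767-34305836, plus strand: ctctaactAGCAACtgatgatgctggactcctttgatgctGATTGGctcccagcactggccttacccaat
H2-Oa, chr17:34092279-34092348, plus strand: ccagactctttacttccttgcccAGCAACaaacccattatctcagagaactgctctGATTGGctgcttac
H2-Ob, chr17:34238805-34238874, plus strand: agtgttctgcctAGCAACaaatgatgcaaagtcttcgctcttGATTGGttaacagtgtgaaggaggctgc
H2-DMb2, chr17:34145149-34145218, plus strand: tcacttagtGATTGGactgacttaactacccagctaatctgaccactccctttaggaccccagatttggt
B2m, chr2:122147587-122147656, plus strand: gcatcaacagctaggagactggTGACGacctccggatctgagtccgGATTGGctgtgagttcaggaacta
H2-K1, chr17:34000334-34000413, minus strand: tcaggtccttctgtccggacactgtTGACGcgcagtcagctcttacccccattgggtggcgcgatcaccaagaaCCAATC
H2-Q7, chr17:35439075-35439154, plus strand: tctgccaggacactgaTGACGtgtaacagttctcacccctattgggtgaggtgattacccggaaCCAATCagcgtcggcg
The Y box core was found on either strand in 9 of the 10 class II and 10 of the 15 class I promoters matched, and in 16.1% of all 32851 promoters of the same length. The X1 core was found in 5 class II and 2 class I promoters, against 14.8% of all, and the X2 core in 1 class II and 9 class I promoters, against 20.8% of all. In H2-Eb1, H2-Eb2, H2-Oa and H2-Ob the X1 core stood 30 to 33 bases upstream of the Y core in the same orientation. In B2m and H2-Aa the X2 core stood 24 and 25 bases upstream of a Y core in the same orientation. In H2-D1, H2-K1 and H2-Q7 the next match to the full Y core stood 48 to 49 bases downstream of the X2 core, in the opposite orientation. The search needed every letter of the core. The shorter attgg, printed in lower case between these matches in H2-K1 and H2-Q7, was therefore not counted, and their spacing may not be that of the boxes. The interferon response core TTTCNNTTTC, searched on both strands and with no match that overlapped another motif, was found in 4 class I promoters (B2m, Erap1, H2-T22 and H2-T23) and in that of Ctss, against 3.44% of all promoters. These matches describe the letters of the reference genome, and factor binding was not measured.

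**Figure D1:**
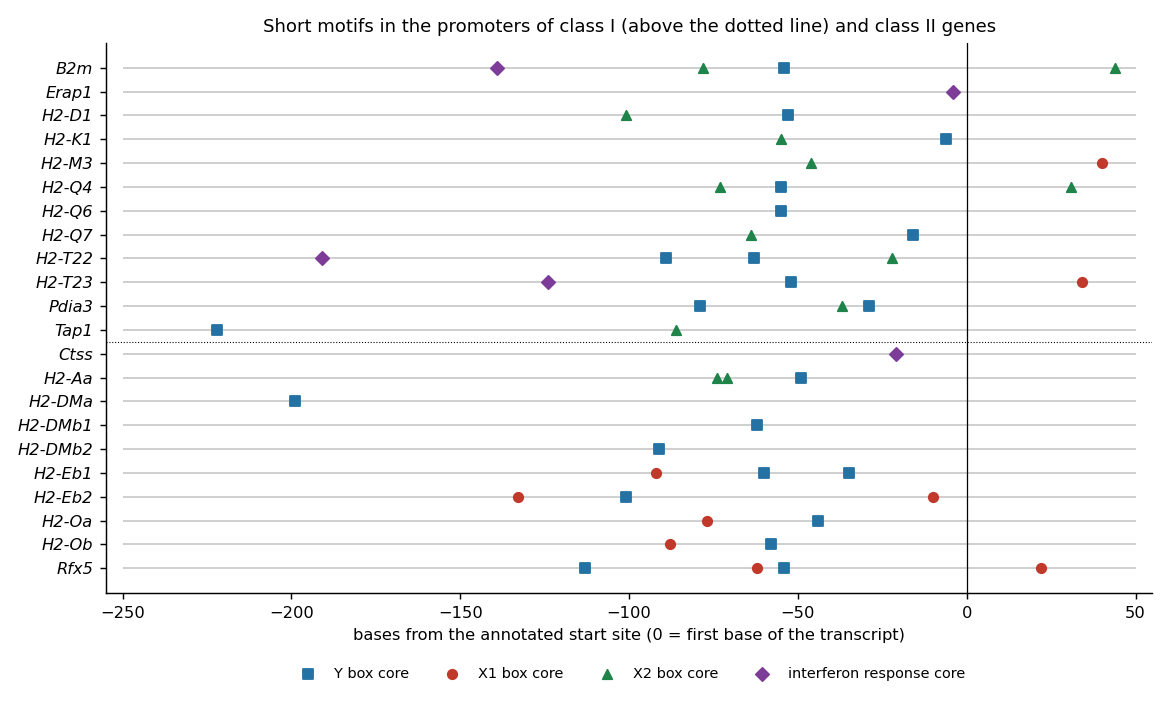
Position of each motif match (x axis, bases from the annotated start site) in the promoters of members that hold at least 1 match (y axis, class I above the dotted line and class II below it). Squares mark the Y box core, circles the X1 core, triangles the X2 core and diamonds the interferon response core, on either strand. Y cores of H2-Aa, H2-Eb1, H2-Oa and H2-Ob lie at -49, -60, -44 and -58.

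Among class II genes, the 7 libraries fell into 3 levels. All 13 class II genes were higher in each KO library than in KO+NM1 libraries 02 to 04, and 12 of the 13 were highest of all in KO+NM1 library 01. The 13 genes summed to 6112 to 6549 CPM in KO, to 717 to 1020.3 CPM in KO+NM1 libraries 02 to 04 and to 13196 CPM in KO+NM1 library 01. The median of log2(CPM + 1) over the 13 was 5.59 to 5.67 in KO, 3.44 to 3.59 in KO+NM1 libraries 02 to 04 and 8.19 in KO+NM1 library 01.

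Cd74, the invariant chain that escorts new class II molecules and blocks their groove, was the most abundant class II transcript. It was at 3563, 3316 and 3412 CPM in KO libraries 01 to 03, at 587, 404 and 553 CPM in KO+NM1 libraries 02 to 04 and at 7775 CPM in KO+NM1 library 01. H2-Aa (chr17:34282744-34287823), the alpha chain of the I-A molecule, was at 936, 869 and 903 CPM in KO, 148, 103 and 140.3 CPM in KO+NM1 02 to 04 and 1788 CPM in KO+NM1 01. Its partner beta chain H2-Ab1 (chr17:34257689-34269419) was at 1031, 902 and 954 CPM in KO, 136, 104 and 123 CPM in KO+NM1 02 to 04 and 1487 CPM in KO+NM1 01. Cd74 and H2-Aa kept close proportions in the 7 libraries. Their count ratio was 3.78 to 3.81 in KO, 3.94 to 3.98 in KO+NM1 02 to 04 and 4.35 in KO+NM1 01. The count ratio of H2-Aa to H2-Ab1 differed more. It was 0.908 to 0.964 in KO, 0.993 to 1.14 in KO+NM1 02 to 04 and 1.2025 in KO+NM1 01. 

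H2-Eb1 (chr17:34305867-34316674), the beta chain of the I-E molecule, was at 33.2, 32.6 and 34.6 CPM in KO, 9.48, 9.88 and 7.15 CPM in KO+NM1 02 to 04 and 101 CPM in KO+NM1 01. The alpha chain of I-E is annotated in this reference strain as the pseudogene H2-Ea-ps, which was at 20.2, 21.4 and 21.2 CPM in KO, 2.73, 2.08 and 2.47 CPM in KO+NM1 02 to 04 and 132 CPM in KO+NM1 01. Both I-E genes thus followed the order of the I-A pair, and no gene named H2-Ea was matched. H2-Eb2, a second E beta gene, was near the floor everywhere except KO+NM1 library 01. It was at 0.367, 1.04 and 0.892 CPM in KO (at most 30 counts), at 0.0407, 0.247 and 0 CPM in KO+NM1 02 to 04 (at most 5 counts), and at 51.4 CPM in KO+NM1 01. 

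H2-DM removes the invariant chain remnant from class II molecules and edits their peptides. Its alpha chain H2-DMa was at 149, 165 and 156 CPM in KO, 23.5, 14.4 and 21.4 CPM in KO+NM1 02 to 04 and 254 CPM in KO+NM1 01. The beta chain gene H2-DMb1 was at 50.1, 47.1 and 47.4 CPM in KO, 11.3, 9.68 and 9.99 CPM in KO+NM1 02 to 04 and 126 CPM in KO+NM1 01. Its neighbour H2-DMb2 was at 39.8, 41.3 and 34.6 CPM in KO, 8.58, 6.97 and 8.67 CPM in KO+NM1 02 to 04 and 295 CPM in KO+NM1 01. The 2 beta chain genes were balanced alike in KO and in KO+NM1 02 to 04, with a DMb2 to DMb1 count ratio of 0.730 to 0.877 and 0.719 to 0.868, whereas the ratio was 2.34 in KO+NM1 01. They are close paralogs, and reads they share could be split between them by the counting.

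H2-O restrains H2-DM and is known from B cells and the thymic medulla. H2-Oa (chr17:34092340-34095234), its alpha chain, was at 2.13, 2.85 and 2.81 CPM in KO, 0.325, 0.741 and 0.370 CPM in KO+NM1 02 to 04 and 109 CPM in KO+NM1 01. H2-Ob (chr17:34238903-34254414), its beta chain, was at 5.00, 7.54 and 7.79 CPM in KO, 1.63, 2.22 and 2.59 CPM in KO+NM1 02 to 04 and 324 CPM in KO+NM1 01. KO+NM1 library 01 was thus 41.8-fold above the KO mean for H2-Oa and 47.8-fold for H2-Ob, against 1.98-fold for H2-Aa and 2.27-fold for Cd74. The count ratio of the 2 H2-O chains to the 3 H2-DM chains was 0.0299 to 0.0446 in KO, 0.0450 to 0.0954 in KO+NM1 02 to 04 and 0.641 in KO+NM1 01.

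Ciita (chr16:10480059-10528418), the coactivator that switches class II genes on, was at 95.1, 93.1 and 90.2 CPM in KO, 5.21, 5.88 and 5.22 CPM in KO+NM1 02 to 04 and 292 CPM in KO+NM1 01. Its 17.1-fold excess in the KO mean over the mean of KO+NM1 02 to 04 was the largest among the 33 members. Rfx5, a subunit of the RFX complex that binds the X box, was at 45.1, 43.8 and 43.9 CPM in KO, 11.1, 12.7 and 15.2 CPM in KO+NM1 02 to 04 and 50.3 CPM in KO+NM1 01, so its KO libraries and KO+NM1 01 lay close together. Ctss, the protease cathepsin S that trims the invariant chain, was at 599.6, 589.7 and 689.7 CPM in KO, 78.2, 43.8 and 61.3 CPM in KO+NM1 02 to 04 and 543 CPM in KO+NM1 01. It was the exception among class II genes, with KO+NM1 01 below each KO library, and the groups therefore did not overlap even with all 7 libraries. Rfx5 shares 26.8% and H2-Oa 22.8% of their exon bases with an antisense gene, and whether the counting used the strand is not stated.

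**Figure D2:**
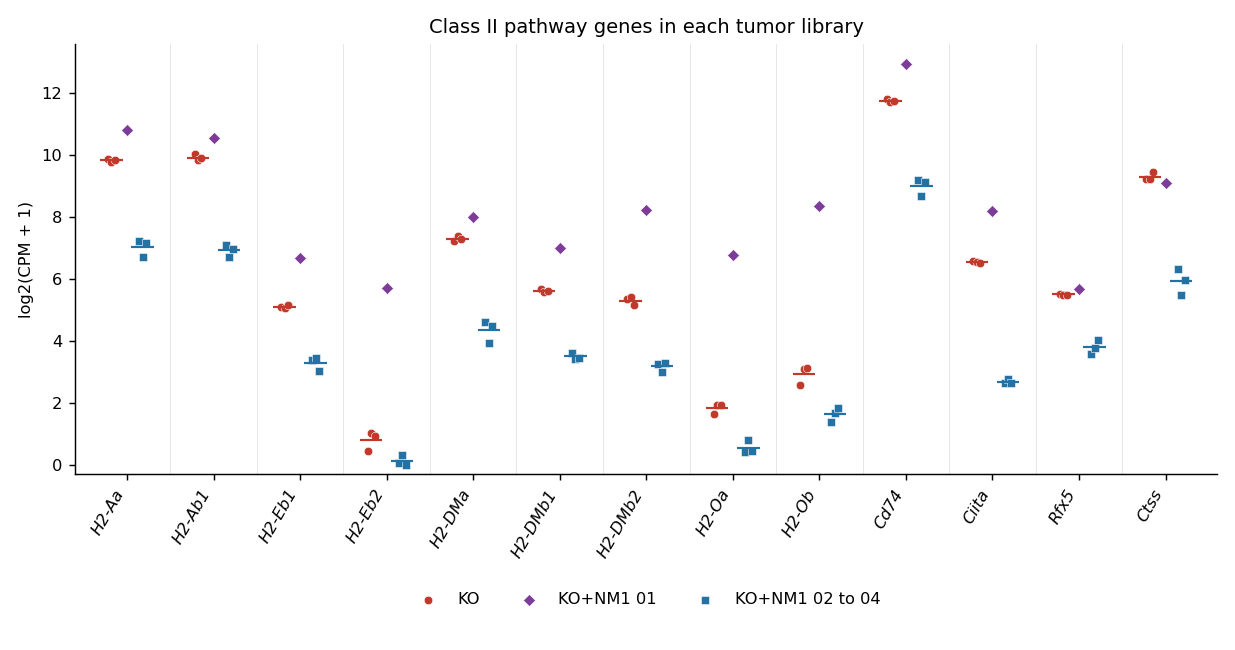
Level of each class II gene as log2(CPM + 1) (y axis) in the 3 KO libraries (circles), KO+NM1 library 01 (diamonds) and KO+NM1 libraries 02 to 04 (squares), with horizontal lines at the mean of KO and of KO+NM1 02 to 04. All 13 genes are higher in KO than in KO+NM1 02 to 04, and KO+NM1 01 is the highest library for 12 of them.

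With all 4 KO+NM1 libraries, none of the 13 class II genes passed the test of KO against KO+NM1. A gene was called at an adjusted p below 0.05 in edgeR's quasi-likelihood test, over all genes tested, and at least a 2-fold change. Over all 16887 genes, 17.1% were called higher in KO and 20.3% lower. At an unadjusted p below 0.05 the class II count was 0 as well, and DESeq2 called none, while limma voom with sample quality weights called 13 higher. The median log2 fold change of the 13, KO minus KO+NM1, was 0.29, beside -0.0017 over all genes tested. The largest standard errors were those of H2-Eb2 and the H2-O chains, and H2-Ob had a log2 fold change of -3.61 (SE 1.82, adjusted p = 0.19) and H2-Oa a log2 fold change of -3.40 (SE 1.93, adjusted p = 0.233). Ciita had a log2 fold change of 0.27 (SE 1.50, adjusted p = 0.896), and Cd74 a log2 fold change of 0.56 (SE 1.09, adjusted p = 0.695). H2-Eb1 was close to 0 (log2 fold change 0.07, SE 0.97) and turned to -0.059 with upper quartile scaling. Ctss was the only class II gene whose 2 groups did not overlap (log2 fold change 1.79, SE 0.89, adjusted p = 0.134), where 30.5% of all genes did not overlap with KO higher.

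Without KO+NM1 library 01, all 13 class II genes were called higher in KO, beside 21.7% of the 16617 genes then tested. The median log2 fold change of the 13 was 2.61, beside -0.0022 over all genes. Ciita differed most (log2 fold change 3.97, SE 0.09, adjusted p = 3.48e-06), followed by Ctss (log2 fold change 3.23, SE 0.20, adjusted p = 2.57e-05). The I-A chains were close to each other, with 2.67 for H2-Aa (SE 0.15) and 2.87 for H2-Ab1 (SE 0.13), and Cd74 was at 2.61 (SE 0.18). H2-DMa was at 2.86, H2-DMb1 at 2.09 and H2-DMb2 at 2.13, and their standard errors ran from 0.10 to 0.17. H2-Oa was at 2.32 (SE 0.39) and H2-Ea-ps at 2.98 (SE 0.16). The smallest differences of the 13 were those of H2-Ob (log2 fold change 1.53, SE 0.28, adjusted p = 0.00246), Rfx5 (log2 fold change 1.64, SE 0.13, adjusted p = 5.71e-05) and H2-Eb1 (log2 fold change 1.79, SE 0.15, adjusted p = 7.20e-05). H2-Eb2 had a log2 fold change of 2.92 (SE 1.00, adjusted p = 0.0222), a fitted value that depends on the prior count since KO+NM1 02 to 04 were near the floor. None of the 13 genes overlapped between the 3 KO libraries and KO+NM1 02 to 04, as was true of 43% of all genes with KO higher. KO+NM1 library 01 was left out because its levels stood apart, so these values describe 3 pieces against 3 pieces.

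Markers of all leukocytes took the same order as the class II genes, but those of B cells and macrophages did not. The 5 markers of all leukocytes (Ptprc, Laptm5, Coro1a, Cd53 and Cd52) summed to 808 to 923 CPM in KO, 116 to 163 CPM in KO+NM1 02 to 04 and 3368 CPM in KO+NM1 01, with 0 of 5 called in the 7 libraries and 5 of 5 called higher in KO without library 01. The 9 B cell markers summed to 11.9 to 54.6 CPM in KO, 6.13 to 23.1 CPM in KO+NM1 02 to 04 and 5926 CPM in KO+NM1 01, and each of the 9 was highest in KO+NM1 01. The B cell sums of KO and of KO+NM1 02 to 04 overlapped, and 1 marker, Blk, was at 0 in KO+NM1 02. Of the 9 markers 0 were called with the 7 libraries, and 1 was called higher in KO without library 01. The sum of the 9 macrophage markers in KO+NM1 01 was, by contrast, below that of every KO library and just above KO+NM1 02 to 04, with 2868 to 3259 CPM in KO, 466 to 633 CPM in KO+NM1 02 to 04 and 672 CPM in KO+NM1 01, and 8 of 9 were called higher in KO. The 8 dendritic cell markers summed to 94.5 to 120.1 CPM in KO, 50.3 to 51.4 CPM in KO+NM1 02 to 04 and 316 CPM in KO+NM1 01, with 6 of 8 called higher and 2 lower in KO without library 01. Single genes weighed heavily in these sums, with Ccr7 at 161 CPM in KO+NM1 01 and Zbtb46 at 25.9, 30.04 and 24.2 CPM in KO+NM1 02 to 04. Of the 8 markers, 4 were highest in KO+NM1 01. The 8 T cell markers summed to 173 to 212 CPM in KO, 3.86 to 4.03 CPM in KO+NM1 02 to 04 and 222 CPM in KO+NM1 01, and 1 to 3 of them were at 0 in each of KO+NM1 02 to 04. In KO+NM1 01, Cd4 at 92.3 CPM and Lck at 75.2 CPM were the largest parts of that sum, and 2 of the 8 were highest there. With the 7 libraries 1 of the 8 was called higher in KO, and without library 01 all 8 were. For 4 of the 8, every KO library was above all 4 KO+NM1 libraries, beside 30.5% of all genes. Over all genes, 17.1% were called higher and 20.3% lower in KO with the 7 libraries, and 21.7% and 25.1% without library 01. The part of these cell types in the class II result was not tested.

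Relative to Ptprc, the pan-leukocyte phosphatase CD45, the class II genes behaved less alike. The Ciita to Ptprc count ratio was 0.414 to 0.507 in KO, 0.497 in KO+NM1 01 and 0.233 to 0.326 in KO+NM1 02 to 04. The Cd74 to Ptprc ratio was 15.6 to 18.98 in KO, 13.2 in KO+NM1 01 and 22.4 to 30.1 in KO+NM1 02 to 04, so that per Ptprc read the latter held the most Cd74. The H2-Ob to Ptprc ratio was 0.0266 to 0.0408 in KO, 0.0835 to 0.123 in KO+NM1 02 to 04 and 0.552 in KO+NM1 01. The Ctss to Ptprc ratio was 3.16 to 3.19 in KO, 2.43 to 4.01 in KO+NM1 02 to 04 and 0.925 in KO+NM1 01. KO+NM1 01 was thus lowest for Ctss and Cd74 per Ptprc read and highest for H2-Ob. These ratios were not tested.

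**Figure D3:**
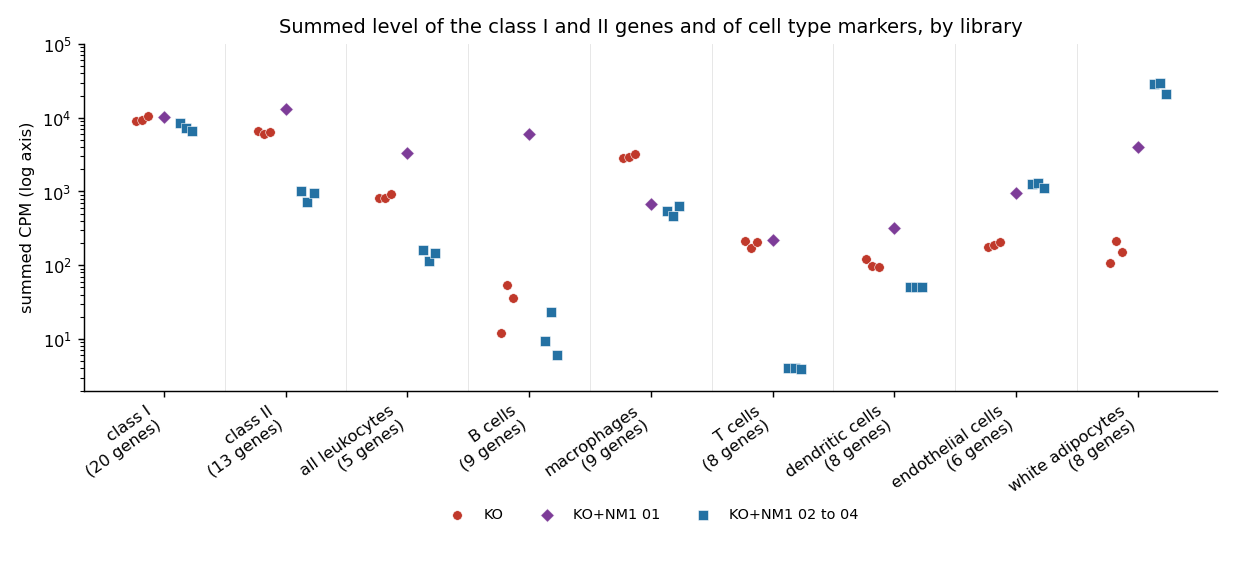
Summed CPM (y axis, log scale) of the class I genes, the class II genes and the marker lists of 7 cell types (x axis, number of genes in parentheses) in KO libraries (circles), KO+NM1 library 01 (diamonds) and KO+NM1 libraries 02 to 04 (squares). KO+NM1 01 is the highest library for the class II genes at 13196 CPM and for B cell markers at 5926 CPM, but lies near KO+NM1 02 to 04 for macrophage markers at 672 CPM.

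Class I genes split into groups. For the most abundant, the classical heavy chains and their light chain, the KO and KO+NM1 libraries overlapped and no difference passed the test. With all 7 libraries 3 of 20 class I genes were called higher in KO (the coactivator Nlrc5 and the nonclassical heavy chains H2-T22 and H2-Q10) and 1 lower (Cd1d1), against 17.1% and 20.3% of all genes. Without KO+NM1 library 01 the counts were 10 higher and 1 lower, against 21.7% and 25.1% of all genes, and the 7 genes added were H2-Q4, H2-Q6, H2-Q7, H2-T23, H2-M3, Tap1 and Tapbpl. The 20 genes summed to 8979 to 10449 CPM in KO, 6572 to 8398 CPM in KO+NM1 02 to 04 and 10159 CPM in KO+NM1 01. Their median log2 fold change was 0.81 with all 7 libraries and 1.02 without library 01. The groups did not overlap for 8 genes higher in KO and 1 lower, against 30.5% and 26.4% of all genes.

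H2-K1 and H2-D1 encode the classical heavy chains K and D. H2-D1 was the higher of the pair, at 2498, 2658 and 3003 CPM in KO, 3458, 2879 and 2551 CPM in KO+NM1 02 to 04 and 3937 CPM in KO+NM1 01. H2-K1 was at 946, 999 and 1130.4 CPM in KO, 916, 994 and 646 CPM in KO+NM1 02 to 04 and 1328 CPM in KO+NM1 01. B2m, the light chain of every class I molecule, was at 1499.5, 1571 and 1705 CPM in KO, 1736, 1494 and 1325 CPM in KO+NM1 02 to 04 and 1588 CPM in KO+NM1 01. The groups overlapped for all 3, with and without KO+NM1 01. H2-K1 had a log2 fold change of 0.08 (SE 0.27, adjusted p = 0.827), H2-D1 a log2 fold change of -0.24 (SE 0.26, adjusted p = 0.487) and B2m a log2 fold change of 0.05 (SE 0.20, adjusted p = 0.849). Leaving out KO+NM1 01 moved these log2 fold changes to 0.14 (SE 0.19), -0.25 (SE 0.18) and -0.06 (SE 0.16), none of which passed. The sign of H2-K1 and B2m turned with the scaling of the libraries, between -0.074 (upper quartile) and 0.25 (library size only) for H2-K1 and between -0.11 and 0.24 for B2m, scalings that moved the median of all genes to -0.16 and 0.17.

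The Q region holds nonclassical heavy chain genes. H2-Q4 was at 389.6, 423 and 506 CPM in KO, 241, 169 and 169.8 CPM in KO+NM1 02 to 04 and 408 CPM in KO+NM1 01. H2-Q4 shares 19.1% of its exon bases with an antisense gene. H2-Q6 was at 255, 269 and 313 CPM in KO, 50.2, 40.8 and 36.0 CPM in KO+NM1 02 to 04 and 276 CPM in KO+NM1 01. H2-Q7, which encodes the nonclassical molecule Qa-2, was at 171, 200.3 and 225 CPM in KO, 32.3, 30.9 and 25.0 CPM in KO+NM1 02 to 04 and 173 CPM in KO+NM1 01. For these 3 genes KO+NM1 01 lay within the KO range, and KO was called higher when it was left out, by 1.06 (SE 0.18), 2.59 (SE 0.15) and 2.63 (SE 0.15) on the log2 scale. With all 7 libraries these 3 genes were not called by edgeR but were by limma voom with sample quality weights. H2-Q10, known as a secreted liver class I molecule, was at 27.9, 27.8 and 33.4 CPM in KO, 2.77, 2.52 and 2.06 CPM in KO+NM1 02 to 04 and 12.2 CPM in KO+NM1 01. Its groups did not overlap (log2 fold change 2.60, SE 0.65, adjusted p = 0.015), and without KO 03 the adjusted p was 0.0521. H2-Q6 and H2-Q7 are near-identical copies that share reads, and the Q7 to Q6 count ratio was 0.643 to 0.757 in KO+NM1 02 to 04, 0.673 to 0.743 in KO and 0.627 in KO+NM1 01, so the values of each gene are uncertain and better read as the pair. 

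In the T and M regions, H2-T22, a ligand of some gamma delta T cell receptors, was at 81.7, 79.9 and 91.0 CPM in KO, 15.9, 17.2 and 12.1 CPM in KO+NM1 02 to 04 and 20.2 CPM in KO+NM1 01. All 4 KO+NM1 libraries were low and close together (log2 fold change 2.36, SE 0.19, adjusted p = 0.000348). Without library 01 the log2 fold change was 2.36 (SE 0.15), and that of H2-Q10 was 3.47 (SE 0.17). H2-T22 shares 29.4% of its exon bases with an antisense gene. H2-T23, which encodes Qa-1 and presents the leader peptides of other class I chains, was at 75.5, 91.6 and 94.4 CPM in KO, 30.7, 26.2 and 26.0 CPM in KO+NM1 02 to 04 and 93.7 CPM in KO+NM1 01. H2-M3, which presents formylated peptides, was at 39.0, 42.0 and 48.1 CPM in KO, 16.9, 13.6 and 16.6 CPM in KO+NM1 02 to 04 and 79.1 CPM in KO+NM1 01. Both overlapped between groups through library 01, and both were called higher in KO without it, H2-T23 with a log2 fold change of 1.53 (SE 0.12, adjusted p = 4.82e-05) and H2-M3 with a log2 fold change of 1.33 (SE 0.13, adjusted p = 0.000132). H2-T24, another heavy chain gene of the T region, ranged from 6.41 to 24.9 CPM over the 7 libraries and was not called (log2 fold change 0.34, SE 0.54, adjusted p = 0.625). Without library 01 its groups did not overlap, and it passed the adjusted p under 2-fold (log2 fold change 0.87, SE 0.30, adjusted p = 0.0339).

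Tap1 and Tap2 form the transporter that carries peptides into the endoplasmic reticulum. Tap1 (chr17:34187553-34197225) was at 374, 391 and 429 CPM in KO, 67.2, 55.9 and 64.6 CPM in KO+NM1 02 to 04 and 290.3 CPM in KO+NM1 01. Tap2 (chr17:34203527-34216321) was at 189, 206 and 214 CPM in KO, 130.2, 107 and 122 CPM in KO+NM1 02 to 04 and 210.2 CPM in KO+NM1 01. The 2 subunits were therefore unequal between groups, with a Tap1 to Tap2 count ratio of 1.89 to 2.00 in KO, 0.516 to 0.532 in KO+NM1 02 to 04 and 1.38 in KO+NM1 01. Tap1 did not overlap between groups and narrowly missed the threshold with all 7 libraries (log2 fold change 1.74, SE 0.61, adjusted p = 0.05003), which it passed with DESeq2 (adjusted p = 0.0152). Without library 01 it was called (log2 fold change 2.54, SE 0.11, adjusted p = 6.82e-06), while Tap2 stayed under 2-fold (log2 fold change 0.64, SE 0.11, adjusted p = 0.00139).

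In the endoplasmic reticulum, other proteins load and trim the peptides. Tapbp, the bridge tapasin, was at 542, 555 and 619 CPM in KO, 288, 248 and 260.4 CPM in KO+NM1 02 to 04 and 414 CPM in KO+NM1 01. Tapbp shares 24.9% of its exon bases with an antisense gene. Its relative Tapbpl, the peptide editor TAPBPR, was at 59.3, 74.8 and 75.5 CPM in KO, 31.3, 36.1 and 25.3 CPM in KO+NM1 02 to 04 and 68.7 CPM in KO+NM1 01. Erap1, the aminopeptidase that trims peptides to length, was at 85.2, 88.9 and 94.5 CPM in KO, 44.1, 48.8 and 43.4 CPM in KO+NM1 02 to 04 and 48.8 CPM in KO+NM1 01. For Erap1 all 4 KO+NM1 libraries were below every KO library (log2 fold change 0.95, SE 0.11, adjusted p = 0.000961). The chaperone Calr was at 976, 962 and 1051 CPM in KO, 626, 553 and 606 CPM in KO+NM1 02 to 04 and 662 CPM in KO+NM1 01. The oxidoreductase Pdia3 was at 582, 593 and 574 CPM in KO, 401, 346 and 405 CPM in KO+NM1 02 to 04 and 398 CPM in KO+NM1 01. Tapbp (log2 fold change 0.92, SE 0.22, adjusted p = 0.011), Calr (log2 fold change 0.70, SE 0.16, adjusted p = 0.0093) and Pdia3 (log2 fold change 0.59, SE 0.14, adjusted p = 0.0119) passed the adjusted p but were under 2-fold, as was Erap1. KO+NM1 library 01 was 1.07-fold the mean of KO+NM1 02 to 04 for Erap1, 1.11-fold for Calr, 1.04-fold for Pdia3 and 1.56-fold for Tapbp. The adjusted p of Calr rose to between 0.0592 and 0.0859 and that of Pdia3 to between 0.0826 and 0.101 when any 1 KO library was left out, and that of Tapbp to 0.0528 without KO 02 and 0.0707 without KO 03. Without library 01, Tapbpl was called (log2 fold change 1.05, SE 0.16, adjusted p = 0.00109), and the log2 fold changes of the other 4 were 0.98 for Tapbp (SE 0.11), 0.85 for Erap1 (SE 0.09), 0.62 for Calr (SE 0.12) and 0.48 for Pdia3 (SE 0.11). Counting these 4 genes, 7 of 20 class I genes were higher in KO by adjusted p alone, beside 25.7% of all genes, and 16 of 20 were without library 01, beside 35.8% of all genes.

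Nlrc5 (chr8:94434356-94527272), the class I coactivator, was at 172, 179 and 216 CPM in KO, 23.2, 26.4 and 19.9 CPM in KO+NM1 02 to 04 and 52.7 CPM in KO+NM1 01. It was higher in KO with all 7 libraries (log2 fold change 2.63, SE 0.35, adjusted p = 0.00138) and without library 01 (log2 fold change 2.90, SE 0.15, adjusted p = 1.06e-05), and library 01 lay between the groups. The Nlrc5 to Ciita count ratio was 1.81 to 2.40 in KO, 3.80 to 4.49 in KO+NM1 02 to 04 and 0.181 in KO+NM1 01, in which the class II coactivator outnumbered the class I one.

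Cd1d1 (chr3:86995834-86999441), which presents lipids to natural killer T cells, ran against the rest. It was at 4.60, 6.43 and 4.79 CPM in KO, 279, 259 and 211 CPM in KO+NM1 02 to 04 and 73.1 CPM in KO+NM1 01. The KO libraries were all below the KO+NM1 libraries, whether library 01 was kept (log2 fold change -5.28, SE 0.43, adjusted p = 0.000616) or left out (log2 fold change -5.69, SE 0.17, adjusted p = 4.53e-06). White adipocyte markers took the same order, with 108 to 216 CPM in KO, 4031 CPM in KO+NM1 01 and 20854 to 29363 CPM in KO+NM1 02 to 04 and 8 of 8 called lower in KO. The sum of endothelial markers did so too, with 178 to 204, 942 and 1117 to 1300.3 CPM and 6 of 6 called lower. Among them Pecam1 was the exception and was highest in KO+NM1 01. It was at 59.6, 63.3 and 66.6 CPM in KO, 479 CPM in KO+NM1 01 and 331, 311 and 287 CPM in KO+NM1 02 to 04. Over all genes, 20.3% were called lower in KO. The part of adipocytes and endothelial cells in the Cd1d1 result was not tested.

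**Figure D4:**
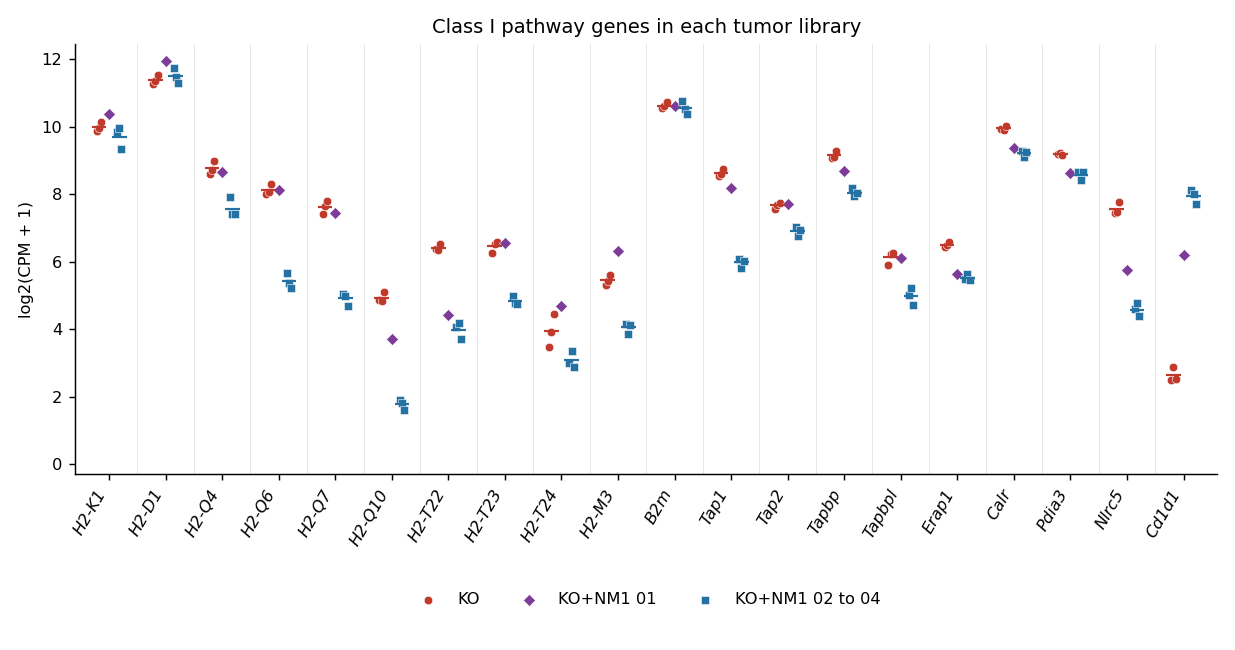
Level of each class I pathway gene as log2(CPM + 1) (y axis) in KO libraries (circles), KO+NM1 library 01 (diamonds) and KO+NM1 libraries 02 to 04 (squares), with horizontal lines at the mean of KO and of KO+NM1 02 to 04. H2-K1, H2-D1 and B2m overlap between groups, 16 genes are higher in KO than in KO+NM1 02 to 04, and Cd1d1 is lower.

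Compared as classes, KO+NM1 library 01 took the following places. It was above each of KO+NM1 02 to 04 for 17 of 20 class I and 13 of 13 class II genes, beside 43% of all genes tested, and above every KO library for 5 of 20 class I and 12 of 13 class II genes, beside 44.5% of all genes. Over 2-fold higher than the mean of KO+NM1 02 to 04 were 10 class I and 13 class II genes, beside 17.6% of all genes. The difference between the classes was not tested. In that library 7 class I genes lay within the KO range (H2-Q4, H2-Q6, H2-Q7, H2-T23, B2m, Tap2 and Tapbpl), and 7 lay between the groups (H2-Q10, H2-T22, Tap1, Tapbp, Erap1, Calr and Nlrc5). H2-K1, H2-D1, H2-T24 and H2-M3 were highest there.

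**Figure D5:**
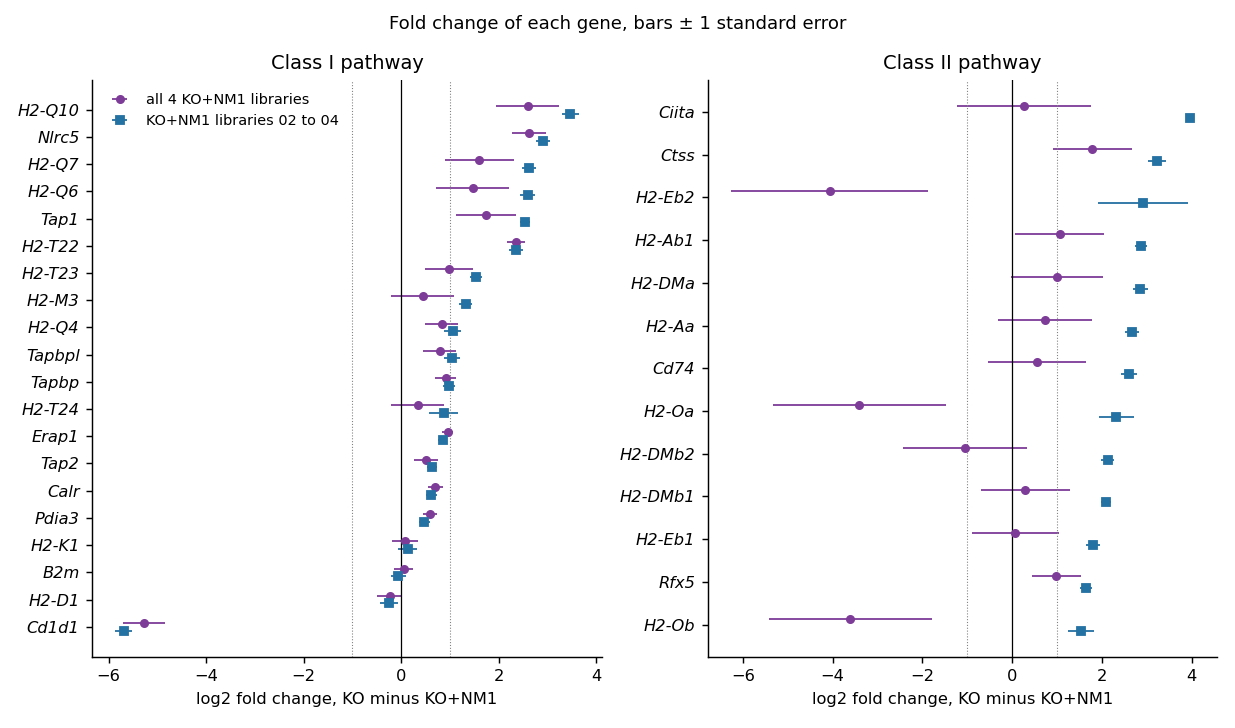
Log2 fold change of KO minus KO+NM1 (x axis) for each class I gene (left) and class II gene (right), with all 4 KO+NM1 libraries (circles) and with libraries 02 to 04 (squares), bars of ± 1 standard error, and dotted lines at a 2-fold change. The class II circles scatter on both sides of 0 with long bars, and all 13 squares lie above 1, from 1.53 for H2-Ob to 3.97 for Ciita.

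Levels between genes were compared as CPM per kilobase of exon. In KO the order was led by Cd74 at 2043, B2m at 1851, H2-D1 at 1055, Ctss at 461 and H2-Ab1 at 375 CPM per kilobase. In KO+NM1 02 to 04, B2m led at 1766 CPM per kilobase, before H2-D1 at 1149 and Cd74 at 307, and Cd1d1 was the 7th of 33 at 97.1 CPM per kilobase, where in KO it was the 30th at 2.05. In KO+NM1 01, Cd74 led at 4631 CPM per kilobase. The least abundant member was H2-Eb2 both in KO and in KO+NM1 02 to 04, at 0.226 and 0.0283 CPM per kilobase.

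Genes outside the 33 that work in the same pathways were read from lists drawn up with them. Of the immunoproteasome and its PA28 activator, which shape peptides for class I, 3 of 5 were called higher in KO and 0 lower, beside 17.1% and 20.3% of all genes. Psmb8 was at 364, 372 and 385 CPM in KO, 99.8, 78.0 and 78.6 CPM in KO+NM1 02 to 04 and 283 CPM in KO+NM1 01 (log2 fold change 1.47, SE 0.48, adjusted p = 0.0386). Psmb10 had a log2 fold change of 1.64 (SE 0.27, adjusted p = 0.00256) and Psmb9 a log2 fold change of 1.36 (SE 0.46, adjusted p = 0.0417), whereas the activator subunit Psme1 did not pass (log2 fold change 0.47, SE 0.25, adjusted p = 0.153). The median log2 fold change of the 5 was 1.36, and without library 01 the counts were the same, 3 called higher and 0 lower, beside 21.7% and 25.1% of all genes. All 5 then passed by adjusted p alone, Psme1 among them (log2 fold change 0.61, SE 0.09, adjusted p = 0.00103).

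Of the other class I pathway genes, 15 of 18 were matched, 4 were called higher in KO and 3 lower, with a median log2 fold change of 0.76, beside 17.1% and 20.3% of all genes called. The chaperone Canx was higher in KO (log2 fold change 1.30, SE 0.14, adjusted p = 0.000645), and Hspa5, the chaperone BiP, passed the adjusted p under 2-fold (log2 fold change 0.89, SE 0.16, adjusted p = 0.00357). Fcgrt, the neonatal Fc receptor chain that pairs with B2m, was lower in KO (log2 fold change -1.36, SE 0.39, adjusted p = 0.0283), at 135, 147 and 146 CPM in KO, 481, 443 and 399.9 CPM in KO+NM1 02 to 04 and 139.6 CPM in KO+NM1 01. Its groups overlapped, since library 01 was at the level of KO. H2-T10, annotated as a polymorphic pseudogene, did not pass (log2 fold change -0.19, SE 0.18, adjusted p = 0.426). Without library 01, 14 of these genes were tested, and 7 were called higher in KO and 2 lower, beside 21.7% and 25.1% of all genes.

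Of the other class II pathway genes, 16 of 18 were matched, 1 was called higher in KO and 0 lower, with a median log2 fold change of 0.09, beside 17.1% and 20.3% of all genes called. That gene was Lgmn, the protease legumain (log2 fold change 1.66, SE 0.24, adjusted p = 0.00181). The cathepsins Ctsb (log2 fold change -0.27, SE 0.32, adjusted p = 0.52), Ctsd (log2 fold change -0.67, SE 0.27, adjusted p = 0.0779) and Ctsl (log2 fold change -0.32, SE 0.22, adjusted p = 0.27) did not pass. Without library 01, 5 of the 16 were called higher in KO and 0 lower, beside 21.7% and 25.1% of all genes, but 4 were lower by adjusted p under 2-fold. Among these were Ctsb (log2 fold change -0.60, SE 0.16, adjusted p = 0.0135), Ctsd (log2 fold change -0.95, SE 0.19, adjusted p = 0.00314) and Ctsl (log2 fold change -0.58, SE 0.13, adjusted p = 0.00656), each below every library of KO+NM1 02 to 04 in the 3 KO libraries.

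Of 10 genes of interferon gamma signalling, a known inducer of both classes, 4 were called higher in KO and 0 lower, with a median log2 fold change of 0.33, and 5 were called higher and 0 lower without library 01. The shares of all genes called higher and lower were 17.1% and 20.3%, and 21.7% and 25.1% without that library. By adjusted p alone, 1 of the 10 was lower in KO at under 2-fold, both with all 7 libraries and without library 01. Irf1, a transcription factor that induces class I genes, was at 525, 544 and 565 CPM in KO, 103, 94.0 and 86.9 CPM in KO+NM1 02 to 04 and 187 CPM in KO+NM1 01 (log2 fold change 2.21, SE 0.29, adjusted p = 0.00129). The kinase Jak1 (log2 fold change 0.08, SE 0.36, adjusted p = 0.864) and the factor Irf8 (log2 fold change 0.25, SE 1.22, adjusted p = 0.88) did not pass with all 7 libraries. Irf8 was at 196, 198 and 221 CPM in KO, 30.7, 22.3 and 26.8 CPM in KO+NM1 02 to 04 and 609 CPM in KO+NM1 01, and without library 01 it was called higher in KO (log2 fold change 2.82, SE 0.13, adjusted p = 7.77e-06), while Jak1 stayed under 2-fold (log2 fold change 0.40, SE 0.10, adjusted p = 0.00922). Also called higher in KO were Socs1 (log2 fold change 2.25, SE 0.59, adjusted p = 0.018) and Ifng itself, named after their values were seen, and Ifng was at 7.03, 7.47 and 10.2 CPM in KO, 0.474 CPM in KO+NM1 01 and 0.0814, 0.0494 and 0.164 CPM in KO+NM1 02 to 04 (log2 fold change 5.35, SE 0.66, adjusted p = 0.00127). Ifng lay close to the floor in KO+NM1 02 to 04, so the size of its fitted change depends on the prior count.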

How the data were processed

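RNA of 3 KO and 4 KO+NM1 tumor pieces was made into NEBNext Ultra II libraries and sequenced on an Illumina NextSeq. The submitters' processing notes and the methods name Trimmomatic 0.36, FastQC, HISAT2 2.0.4 on GRCm38 (mm10), SAMtools 0.1.19 and HTSeq. The values used are the raw read counts per gene deposited by the authors, 1 table per library with 46603 Ensembl genes, of which 46005 had a GENCODE M21 symbol; the annotation release and strand setting of the counting are not given in the sources used here. Reads of near-identical H2 genes may be split or lost, and alleles of the Balb/c host may align less well to the C57BL/6J reference.

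Counts were analysed with edgeR 4.0.16 in R 4.3.3: filterByExpr (minimum count 10), TMM, glmQLFit and glmQLFTest, and Benjamini-Hochberg adjustment over all genes tested, with the study's thresholds (adjusted p below 0.05, log2 change of at least 1). The script was first tested on simulated data. The comparison was repeated without KO+NM1 library 01, and limma 3.58.1, DESeq2 1.42.0, other scalings, filters, thresholds, the replicate number as a block and each library left out were alternatives; those for the comparison without library 01 were chosen after seeing the data. Same-numbered KO and KO+NM1 libraries had correlated deviations of 0.0802, 0.102 and -0.0165, so the numbers were not taken as pairs. Replicates of 1 group differed by more than sampling noise (chi-square per degree of freedom 35.2 to 687). The members, gene lists and cell type markers were chosen with earlier results of these data known. All 33 members are named. Values per library are given for those of at least 20 CPM in the mean of either group, every class II gene and the regulators. The plan for other lists was to name at most 4 genes, those of highest mean CPM, and H2-Ea-ps whatever its value. The text names further genes of these lists, among them some picked after their values were seen. Values of 2 listed genes are not reported here.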

Additional observations from a re-analysis of the deposited data

Results flagged for a closer look

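Within the 4 KO+NM1 libraries, 23 of 35 values (33 genes and 2 class medians) had 1 library so far from the others that its gap, divided by the range of the 4, passed Dixon's critical value. Chance flags about 1 in 20 such groups where no library stands apart, but KO+NM1 01 had already been seen to do so, and it was the highest library and past this value for 15.2% of all 16887 genes tested. These ratios therefore describe that library again and are no separate evidence. In 22 of the 23, the library was KO+NM1 01 and it was the highest.

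All 13 class II genes were among them. The ratio was 0.973 for H2-Aa, 0.977 for H2-Ab1, 0.971 for H2-Eb1, 0.995 for H2-Eb2 and 0.975 for Cd74. It was 0.962 for H2-DMa, 0.986 for H2-DMb1, 0.994 for H2-DMb2, 0.996 for H2-Oa and 0.997 for H2-Ob. For the regulators it was 0.998 for Ciita and 0.895 for Rfx5, and for the protease Ctss it was 0.931. The class II median of log2 CPM gave 0.969.

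Of the class I genes, 7 stood out through KO+NM1 01, with 0.941 for H2-Q6, 0.950 for H2-Q7, 0.930 for H2-Q10, 0.931 for H2-T23, 0.848 for H2-T24, 0.950 for H2-M3 and 0.952 for Tap1. The class I median of log2 CPM gave 0.919. Pdia3 was the exception, flagged at 0.882 because KO+NM1 03 was low at 346 CPM. H2-K1, H2-D1, B2m and Nlrc5 were not flagged. B cell markers, which summed to 5926 CPM in KO+NM1 01 and to 6.13 to 23.1 CPM in KO+NM1 02 to 04, moved with these values, and their part was not tested.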

How the results depend on the processing

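The counts moved most when KO+NM1 library 01 was left out and with limma voom with sample quality weights. Of 20 class I genes 3 were called higher in KO, and this was 5 with library size only, 13 with limma voom, 7 by adjusted p alone, and 2 to 10 with 1 library left out, the 10 without KO+NM1 01. Cd1d1 was called lower under every alternative. Class II genes called higher were 0, but 13 with limma voom and 0 to 13 with 1 library left out, the 13 without KO+NM1 01. Their median log2 fold change of 0.29 was 2.61 with limma voom and ran from -0.038 to 2.61 with 1 library left out, falling below 0 without KO+NM1 02, 03 or 04. Without KO+NM1 01, the 10 class I calls became 16 by adjusted p alone (35.8% of all genes) and the class I median of 1.02 became 1.39 with library size only, and the class II median of 2.61 became 2.97 with library size only and ran from 2.30 to 2.64 with a further library left out.

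Single genes with all 7 libraries turned sign as follows, and the cause was not tested. H2-K1 was at -0.018 with DESeq2 size factors and the DESeq2 Wald test, at -0.019 with every gene of at least 1 count, at -0.074 with upper quartile scaling, at -0.059 with the replicate block, and at -0.11 to 0.14 with 1 library left out. B2m was at -0.049, -0.049 and -0.047 in the first 3 of these, at -0.11 with upper quartile scaling, at -0.012 with the replicate block, and at -0.11 to 0.10 with 1 library left out. H2-Eb1 was at -0.059 with upper quartile scaling, at -0.015 with every gene of at least 1 count, and at -0.27 to 1.79 with 1 library left out. With limma voom H2-Eb2 was at 3.60, H2-DMb2 at 2.09, H2-Oa at 2.61 and H2-Ob at 1.81. With the replicate block, in which KO+NM1 04 has no partner, they were at 0.44, 0.92, 0.59 and 0.32. With 1 library left out, H2-Eb2 ran from -4.49 to 2.92, H2-DMb2 from -1.44 to 2.13, H2-Oa from -3.82 to 2.32, H2-Ob from -4.02 to 1.53, Ciita from -0.13 to 3.97, H2-DMb1 from -0.038 to 2.09 and H2-T24 from -0.081 to 0.87. The replicate block called 3 class I and 0 class II genes higher, as without it, and its calls over all genes were 2437 higher and 2493 lower, against 2882 and 3424. Over all members and alternatives, 419 of the gene values kept direction and side of the threshold, 38 passed it newly, 13 lost it and 45 turned sign. Depth limits H2-Eb2, H2-Oa and Ifng, which lay near the floor in KO+NM1 02 to 04.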

Other observations

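Some genes of the class II pathway list, named here after their values were seen, followed the order of the class II genes across the 7 libraries. March1, a ubiquitin ligase that removes class II molecules from the surface, was at 20.5, 21.3 and 27.1 CPM in KO, 3.09, 4.05 and 2.96 CPM in KO+NM1 02 to 04 and 92.5 CPM in KO+NM1 01. Cd83, which opposes March1, was at 42.8, 46.9 and 47.6 CPM in KO, 8.50, 9.39 and 9.37 CPM in KO+NM1 02 to 04 and 155 CPM in KO+NM1 01. Ifi30, the lysosomal thiol reductase that unfolds antigens, was at 143, 155 and 154 CPM in KO, 26.2, 23.7 and 24.6 CPM in KO+NM1 02 to 04 and 379 CPM in KO+NM1 01. March8, a related ligase expressed broadly, did not take that order, with 79.0, 74.6 and 73.8 CPM in KO, 78.0, 79.8 and 79.7 CPM in KO+NM1 02 to 04 and 33.6 CPM in KO+NM1 01. Of the RFX subunits other than Rfx5, Rfxank was at 11.7, 10.3 and 9.15 CPM in KO, 16.4, 13.3 and 12.5 CPM in KO+NM1 02 to 04 and 19.04 CPM in KO+NM1 01, so each KO library was below every KO+NM1 library, and without library 01 it passed the adjusted p under 2-fold (log2 fold change -0.56, SE 0.17, adjusted p = 0.0217). Rfxap overlapped between groups, at 31.5, 32.1 and 27.3 CPM in KO, 33.6, 26.7 and 24.2 CPM in KO+NM1 02 to 04 and 21.3 CPM in KO+NM1 01.

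Cd1d1 was not alone among class I-like molecules in being lower in KO. Mr1, which presents vitamin B metabolites, was at 11.7, 11.4 and 11.4 CPM in KO, 44.0, 48.8 and 42.7 CPM in KO+NM1 02 to 04 and 18.9 CPM in KO+NM1 01 (log2 fold change -1.74, SE 0.31, adjusted p = 0.00479). By contrast H2-Q5, a Q region gene annotated as a polymorphic pseudogene, was at 40.1, 41.3 and 46.8 CPM in KO, 0.936, 0.791 and 1.19 CPM in KO+NM1 02 to 04 and 4.01 CPM in KO+NM1 01 (log2 fold change 4.61, SE 0.57, adjusted p = 0.00135). These genes were also named after their values were seen, and no explanation was tested.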
